A study of Mus musculus with 12 samples.

Results

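Expression of the Hedgehog pathway was examined in skin of C3H/HeJ grafted mice with alopecia areata that were treated topically with baricitinib or with vehicle control. The members were the 7 genes Shh, Ptch1, Smo, Gli1, Gli2, Gli3 and Hhip, taken by gene symbol, and all 18 of their probe sets were used out of 45037 tested. They are 7 of the 18193 genes that had a probe set with a single symbol. The 12 arrays form 4 groups of 3, which are baricitinib at week 12, baricitinib at week 0, vehicle at week 12 and vehicle at week 0. The labels give the same number codes at both times within a treatment, and arrays that share a code were taken as 1 mouse. All 6 mice carried grafts of alopecic C3H/HeJ skin and had established disease when treatment began, and each was biopsied at the start and after 12 weeks. Baricitinib is an inhibitor of the kinases JAK1 and JAK2. Ages of the mice at sampling were not given in the labels, and no healthy, ungrafted skin was among these arrays. The biopsies were whole skin, so that fewer cells of a type and less RNA per cell cannot be told apart in any of these values.

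Hedgehog signalling works through release of an inhibitor. Sonic hedgehog, encoded by Shh, is a secreted ligand that binds the receptor Patched 1, encoded by Ptch1, and this relieves the block that Patched 1 holds on the membrane protein Smoothened, encoded by Smo. Smoothened then acts through the primary cilium on the GLI transcription factors, of which Gli2 is mainly an activator, Gli3 mainly a repressor and Gli1 an activator that is itself a target gene. Ptch1 and Hhip, which encodes a membrane protein that binds the ligand, are also target genes and feed back on the pathway. In the growing hair follicle Shh is made in the epithelium of the matrix, while the response is seen in neighbouring epithelium and in the dermal papilla, and the pathway is needed for follicle growth.

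Values are RMA values on the log2 scale, as the authors deposited them, and the median of all probe sets lay between 5.16 and 5.35 on the 12 arrays. Groups were compared with limma, and a call meant an adjusted p below 0.05, with the adjustment made over every probe set tested in that comparison. The skin label was checked against epidermal keratins, and Krt5, Krt14 and Krt10 were between 11.89 and 13.29 on every array. Some arrays stood apart in quality. The mean correlation with the other arrays was between 0.941 and 0.973, and it was lowest for baricitinib week 0 replicate 2 (0.941) and baricitinib week 12 replicate 1 (0.946). The 3' minus 5' index, which is the mean log2 signal of 3' over 5' control probe sets of Gapdh and Actb, was 3.45, 1.27 and 1.31 at week 12 of baricitinib and between 2.55 and 4.10 at week 0. In vehicle skin it was between 2.97 and 3.58 at week 12, and at week 0 it was 1.23, 3.67 and 4.08. The study's methods state that a baricitinib sample of each time in the topical experiment, and a control sample at baseline whose experiment is not named, failed quality control and were removed before further analysis. They do not state whether these are among the arrays used here.

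By its brighter probe set, every value of Shh in skin after 12 weeks of baricitinib was lower than all values of the other groups. This probe set, 1436869_at, had 2.45, 4.35 and 1.80 on the log2 scale in baricitinib skin at week 12, against 9.14, 7.58 and 9.32 in baricitinib skin at week 0. In vehicle skin it had 6.39, 7.79 and 8.14 at week 12, and 8.89, 5.97 and 7.41 at week 0. All 3 values at week 12 of baricitinib were under the median of their arrays, at percentiles 4.77, 39.3 and 2.94 of all probe sets, whereas the other 9 arrays were at percentiles 57.3 to 86.2. The order of group means was 2.87 ± 1.33 in baricitinib week 12, 7.42 ± 1.46 in vehicle week 0, 7.44 ± 0.93 in vehicle week 12 and 8.68 ± 0.96 in baricitinib week 0 (SD, n = 3 each). The values of the last 3 of these groups overlapped.

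**Figure D1:**
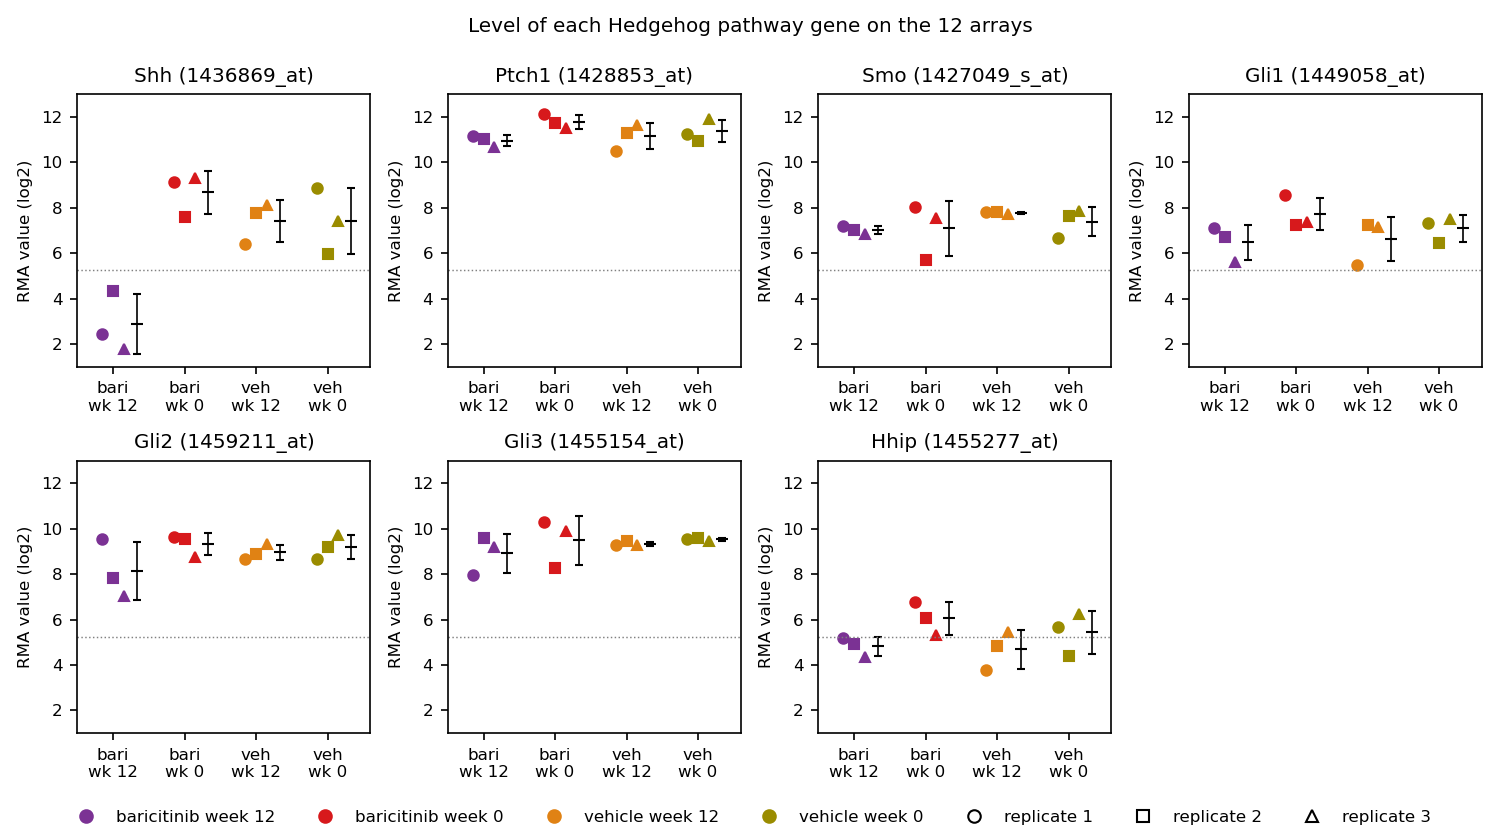
RMA value (log2) of the brightest probe set of each Hedgehog gene in the 4 groups, with a point for each array, the mean and SD beside them as a bar, and the mean of the array medians as a dotted line. The 3 baricitinib week 12 values of Shh, 1.80 to 4.35, lie under all 9 others, while those of Ptch1, Smo, Gli1, Gli2, Gli3 and Hhip overlap with those of at least 1 other group.

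In the comparison of baricitinib week 12 with week 0, Shh differed by -5.81 on the log2 scale (SE 0.83, 95% confidence interval -7.62 to -4.00, limma adjusted p = 0.0102), which is 56.1-fold. It was the only one of the 18 probe sets called lower, where 0.875% of all probe sets were, and none was called higher. It was the 7th lowest difference among all 45037 probe sets. Within mice the change was -6.68, -3.23 and -7.52 with baricitinib, and -2.50, 1.82 and 0.73 with vehicle. The call was lost when mice were blocked as replicates in the fit (adjusted p = 0.0603) and without baricitinib week 0 replicate 3 (adjusted p = 0.0607). Without the 2 arrays of lowest correlation the difference was -6.15 (limma adjusted p = 0.0262). Without the 3 arrays with an index under 2 it was -6.22, but replicate 1 was then the only baricitinib week 12 array left. Since the week 12 values were low on the array, the size of the fold is not exact.

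Baricitinib and vehicle skin at week 12 differed in Shh by -4.57 (SE 0.83, 95% confidence interval -6.38 to -2.76, limma adjusted p = 0.0377), and it was the only member called there, where 0.429% of all probe sets were called lower. At week 0 the difference between the treatments was 1.26 (95% confidence interval -0.56 to 3.07, adjusted p = 1.00), and in vehicle skin week 12 differed from week 0 by 0.02 (95% confidence interval -1.79 to 1.83, adjusted p = 1.00). These comparisons share arrays. The change with baricitinib minus the change with vehicle was -5.83 (SE 1.17, 95% confidence interval -8.39 to -3.26), with an unadjusted limma p of 0.00036 and an adjusted p of 0.206. The change was therefore not shown to differ between the treatments at the threshold used. The call against vehicle was lost when any 1 of 8 arrays was left out, with adjusted p-values of 0.0613 and 0.0553 without baricitinib week 0 replicates 1 and 3, 0.0573 and 0.147 without baricitinib week 12 replicates 1 and 3, 0.0519 without vehicle week 0 replicate 3, and 0.0799, 0.148 and 0.138 without vehicle week 12 replicates 1, 2 and 3.

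The other probe set of Shh, 1427571_at, was dim on all arrays. It had 3.74 to 3.90 in baricitinib week 12, 3.84 to 4.45 in baricitinib week 0, 3.87 to 4.50 in vehicle week 12 and 3.78 to 4.05 in vehicle week 0, so that the groups overlapped. Its difference between baricitinib week 12 and week 0 was -0.26 (limma adjusted p = 0.743), and its correlation with 1436869_at over the 12 arrays was 0.22. The result on Shh thus rests on a single probe set.

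The paper reports that mice given topical baricitinib regrew hair, while those given vehicle showed no clinical sign of it. Low Shh at week 12 of baricitinib came with low levels of genes of the hair matrix and shaft. Of 8 measured markers of these cells, 3 were lower in baricitinib skin at week 12 than at week 0 and none higher, where 1.55% of all genes were lower, with a median log2 difference of -2.48 (8 of 8 below 0), against a median of -0.02 over all genes. The called genes were the hair keratins Krt35 (-6.51) and Krt31 (-5.16) and the transcription factor Msx2 (-2.79). The mean level of the 8 markers was between 6.01 and 6.70 in baricitinib week 12, against 8.53 to 10.09 in baricitinib week 0, 7.96 to 8.33 in vehicle week 12 and 7.28 to 9.94 in vehicle week 0. Against vehicle at week 12, 1 of the 8 was called lower, Krt35 (-4.80), and the median of the 8 was -1.22. In that comparison 0.429% of all probe sets were called lower, and 0.951% of all genes were called in either direction. Krt35 itself was under the array medians at week 12 of baricitinib, with 3.39, 4.44 and 2.79. Of 7 measured proliferation markers, 2 were lower (Cdk1 and Bub1) and none higher, with a median of -1.03. Against vehicle at week 12 limma called 0 of the 7, with a median of -0.63. An unadjusted p under 0.05 was found for 3 of them, where 10.9% of all probe sets had such a p. Their mean level was 6.98 to 7.87 in baricitinib week 12 and 8.47 to 8.73 in baricitinib week 0. Both marker lists were chosen with earlier results of these data known, so their calls beside the share of all genes are a description only. The part of these markers in the difference of Shh was not tested. Baricitinib week 12 replicate 1, with a 3' minus 5' index of 3.45 and an array correlation of 0.946, had Shh at 2.45. Replicates 2 and 3 of that group, with an index of 1.27 and 1.31, had Shh at 4.35 and 1.80. Vehicle week 0 replicate 1, with an index of 1.23, had Shh at 8.89. The part of the index in these values was not tested.

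The receptor and the target genes of the pathway showed smaller differences, and none was called. Ptch1 was the brightest of the 7 genes by its probe set 1428853_at, at percentile 97.4 of the mean levels of all probe sets. It had 11.17, 11.05 and 10.68 in baricitinib skin at week 12, against 12.13, 11.72 and 11.52 at week 0. In vehicle skin it had 10.52, 11.30 and 11.65 at week 12, and 11.26, 10.96 and 11.93 at week 0. The baricitinib groups did not overlap, but both lay within or near the range of vehicle skin. The difference between baricitinib week 12 and week 0 was -0.82 (SE 0.34, 95% confidence interval -1.56 to -0.08, limma adjusted p = 0.339). Against vehicle at week 12 it was -0.19 (95% confidence interval -0.93 to 0.55, adjusted p = 0.940). The dim probe sets 1450824_at and 1439663_at of Ptch1 were under the median of every array, with differences of 0.41 and -0.01 between baricitinib week 12 and week 0.

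Gli1, whose product is both effector and target of the pathway, had 7.12, 6.70 and 5.62 in baricitinib skin at week 12, against 8.55, 7.26 and 7.39 at week 0. Vehicle skin had 5.49, 7.24 and 7.15 at week 12, and 7.35, 6.43 and 7.50 at week 0. The lowest value of all was thus from vehicle skin. Gli1 differed by -1.25 between baricitinib week 12 and week 0 (SE 0.56, 95% confidence interval -2.47 to -0.04, limma adjusted p = 0.390) and by -0.15 from vehicle at week 12 (95% confidence interval -1.36 to 1.07, adjusted p = 0.978). Within mice the change was -1.43, -0.56 and -1.78 with baricitinib, and -1.86, 0.81 and -0.34 with vehicle, so that the ranges overlapped.

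Hhip, the ligand-binding inhibitor, was measured by 4 probe sets, and the brightest, 1455277_at, was near the array medians. It had 5.19, 4.92 and 4.35 in baricitinib skin at week 12, against 6.78, 6.07 and 5.31 at week 0, and 3.76, 4.84 and 5.46 in vehicle skin at week 12, against 5.69, 4.38 and 6.25 at week 0. The difference between baricitinib week 12 and week 0 was -1.24 (SE 0.55, 95% confidence interval -2.44 to -0.03, limma adjusted p = 0.392), and that from vehicle at week 12 was 0.13 (95% confidence interval -1.08 to 1.34, adjusted p = 0.982). Another probe set, 1421426_at, had 3.69, 3.10 and 3.23 in baricitinib week 12 and 4.28, 4.36 and 4.35 in baricitinib week 0, with no overlap. Its difference of -0.99 had the lowest adjusted p of the 17 probe sets beside the called one (limma adjusted p = 0.177). It was under the median of all 12 arrays. The remaining probe sets 1438083_at and 1437933_at differed by -1.09 and 0.39.

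**Figure D2:**
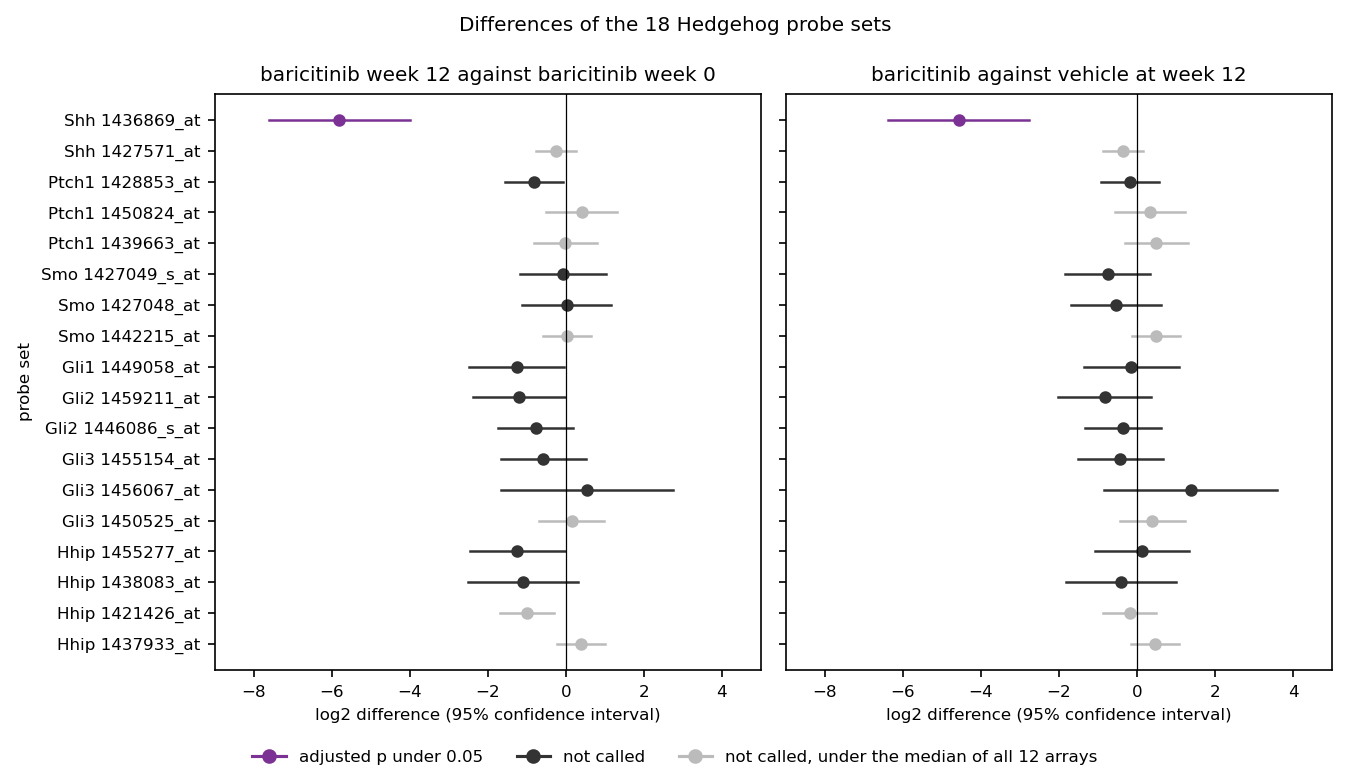
Log2 difference with 95% confidence interval of each of the 18 probe sets, for baricitinib week 12 against baricitinib week 0 on the left and for baricitinib against vehicle at week 12 on the right. Shh 1436869_at is called in both, with -5.81 and -4.57. The intervals of Ptch1 1428853_at, Gli1, Gli2 1459211_at, Hhip 1455277_at and Hhip 1421426_at also end under 0 on the left, and all of these span 0 on the right.

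Ptch1, Gli1 and Hhip varied together from array to array. Over the 12 arrays Pearson's r was 0.95 between Ptch1 and Hhip, 0.92 between Ptch1 and Gli1, and 0.91 between Gli1 and Hhip. Without the 3 arrays of baricitinib week 12 these were 0.95, 0.91 and 0.91. Baricitinib week 0 replicate 1 had the highest value of all 3 genes, and vehicle week 12 replicate 1 had the lowest. Shh followed Gli1 less closely, with 0.62 over 12 arrays and 0.77 over the 9. Baricitinib week 12 replicate 1 had Shh at 2.45 while Gli1 was at 7.12, whereas vehicle week 12 replicate 1 had Shh at 6.39 with Gli1 at 5.49. These correlations describe arrays that share mice, group means and normalization, and no test was made of them.

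**Figure D3:**
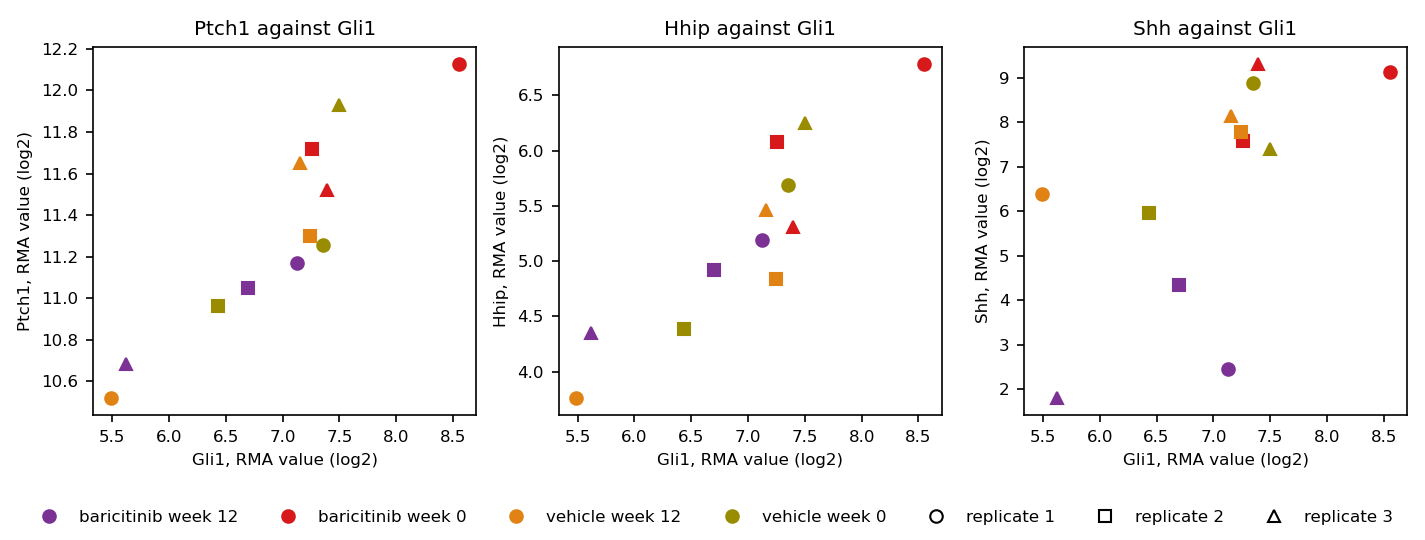
RMA values (log2) of Ptch1, Hhip and Shh against that of Gli1, with a point for each of the 12 arrays, coloured by group and shaped by replicate. Ptch1 and Hhip lie along a line with Gli1 (r of 0.92 and 0.91), while the baricitinib week 12 arrays lie under the others in the plot of Shh.

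Since Ptch1 and Hhip are target genes of the GLI factors and moved together here, their promoters are shown from RefSeq on GRCm38.p6, for 250 bases before to 50 after the annotated start. That of Ptch1 is at chr13:63565686-63565985 and that of Hhip at chr8:80057959-80058258, both on the minus strand. The table held a promoter for 5 of the 7 members, which were Ptch1, Hhip, Smo, Gli2 and Gli3. Capitals mark the core GGGTGG or its reverse complement CCACCC of the GLI motif, and a sequence without capitals holds no core.
Ptch1: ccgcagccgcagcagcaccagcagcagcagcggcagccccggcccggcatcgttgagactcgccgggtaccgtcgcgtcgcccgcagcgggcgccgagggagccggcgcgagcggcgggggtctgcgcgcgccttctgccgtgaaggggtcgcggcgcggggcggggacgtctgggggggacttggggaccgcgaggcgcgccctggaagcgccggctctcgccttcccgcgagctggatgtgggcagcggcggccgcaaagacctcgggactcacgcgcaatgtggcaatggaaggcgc
Hhip: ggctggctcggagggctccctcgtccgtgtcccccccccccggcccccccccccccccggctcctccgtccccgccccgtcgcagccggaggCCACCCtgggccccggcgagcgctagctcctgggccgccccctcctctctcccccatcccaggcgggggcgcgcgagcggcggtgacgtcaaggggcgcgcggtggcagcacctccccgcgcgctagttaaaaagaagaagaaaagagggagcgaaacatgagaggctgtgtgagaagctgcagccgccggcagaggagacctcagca
The full motif TGGGTGGTC, or GACCACCCA on the other strand, was in none of the 5 promoters and in 0.253% of the 32851 promoters of this length in the table. The core, which is part of that motif, was found once in Hhip, at base -158 from the start, once each in Smo and Gli3, at 2 places in Gli2 and not in Ptch1, and 31.5% of all promoters held it. These matches describe the letters in the window only.

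Smo, the transducer, was measured by 3 probe sets and had no call. For 1427049_s_at the values were 7.20, 7.05 and 6.84 in baricitinib week 12, against 8.03, 5.72 and 7.54 in baricitinib week 0, and 7.81, 7.81 and 7.72 in vehicle week 12, against 6.65, 7.63 and 7.86 in vehicle week 0. All 3 values at week 12 of baricitinib were under those of vehicle at week 12, but the difference of -0.75 was not called (95% confidence interval -1.85 to 0.34, limma adjusted p = 0.687). Between baricitinib week 12 and week 0 it was -0.07 (95% confidence interval -1.17 to 1.03). The lowest value, 5.72, was that of the array with the lowest correlation, baricitinib week 0 replicate 2. The probe set 1427048_at correlated with it at 0.90 and differed by 0.02 between baricitinib week 12 and week 0, and the dim 1442215_at differed by 0.03.

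Gli2, the main activator, had 9.53, 7.84 and 7.02 in baricitinib week 12 by its probe set 1459211_at, against 9.66, 9.57 and 8.77 in baricitinib week 0. Vehicle skin had 8.67, 8.88 and 9.34 at week 12, and 8.66, 9.19 and 9.74 at week 0. Replicate 1 of baricitinib week 12 was thus level with other groups and replicates 2 and 3 were the lowest of all 12 arrays. The difference between baricitinib week 12 and week 0 was -1.20 (SE 0.54, limma adjusted p = 0.399), and the second probe set, 1446086_s_at, which correlated with it at 0.98, gave -0.77. Against vehicle at week 12 the difference of 1459211_at was -0.83 (95% confidence interval -2.02 to 0.36, adjusted p = 0.678). Both passed the test without baricitinib week 12 replicate 1, with differences of -1.90 (adjusted p = 0.0352) and -1.36 (adjusted p = 0.0469). The 2 low arrays are also the ones with a 3' minus 5' index of 1.27 and 1.31. When the 3 arrays with an index under 2 were left out, the differences were 0.20 and 0.40. That removal took out the 2 low arrays themselves and left only replicate 1 of baricitinib week 12, so its outcome follows from the choice. With the index as a covariate the differences were -0.47 (limma adjusted p = 0.547) and -0.20 (adjusted p = 0.793). Index and group cannot be told apart here, since 2 of the 3 arrays of low index are of baricitinib week 12.

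Gli3, mainly a repressor, had 7.96, 9.57 and 9.21 in baricitinib week 12 by 1455154_at, against 10.29, 8.27 and 9.90 in baricitinib week 0, with a difference of -0.57 (95% confidence interval -1.66 to 0.52, limma adjusted p = 0.729), and of -0.42 from vehicle at week 12 (adjusted p = 0.875). In vehicle skin it was between 9.28 and 9.45 at week 12, and between 9.47 and 9.59 at week 0. The probe set 1456067_at spread more widely, with 5.14, 8.74 and 9.26 in baricitinib week 12, against 7.65, 6.01 and 7.82 in baricitinib week 0. Its values in vehicle skin were 7.09, 6.94 and 4.99 at week 12, and 8.86, 6.81 and 7.21 at week 0. The 3 highest of these were the 3 arrays with an index under 2. Its difference between baricitinib week 12 and week 0 was 0.55 (95% confidence interval -1.66 to 2.76), and that of the dim 1450525_at was 0.15.

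**Figure D4:**
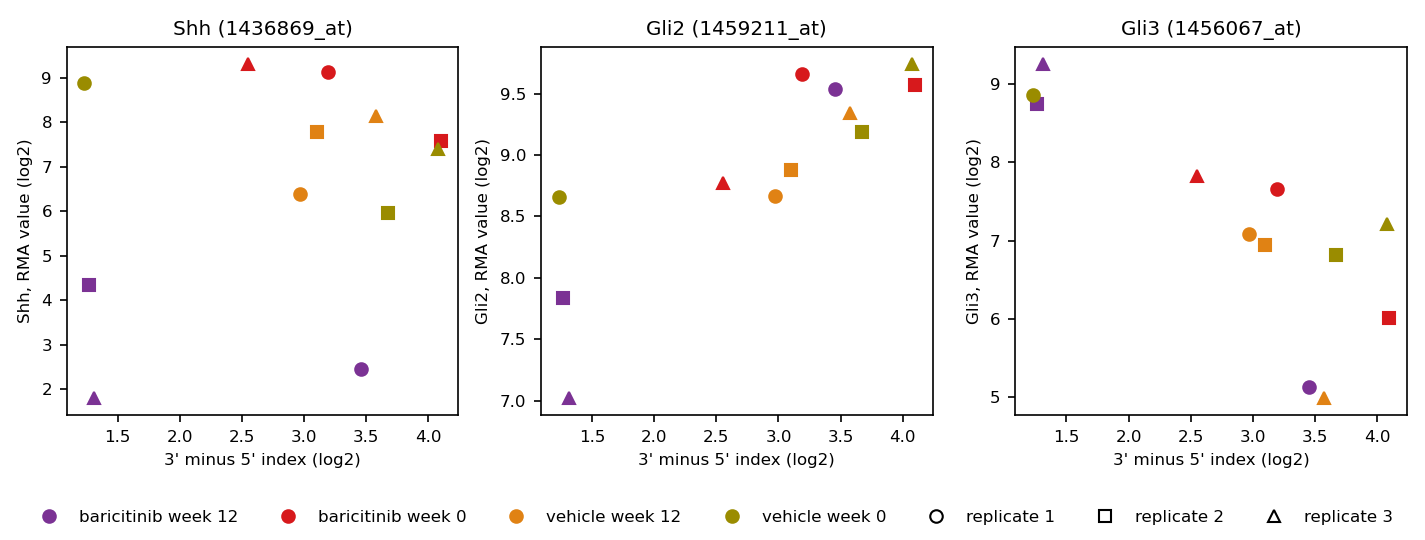
RMA values (log2) of Shh, Gli2 1459211_at and Gli3 1456067_at against the 3' minus 5' index (log2) of each of the 12 arrays. Of the 3 arrays with an index under 2, the 2 of baricitinib week 12 have the lowest Gli2 values, 7.84 and 7.02, all 3 have the highest Gli3 values, and Shh is 4.35 and 1.80 on 2 of them but 8.89 on the other.

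Across the 18 probe sets, 6 had an unadjusted p under 0.05 between baricitinib week 12 and week 0, all with a negative difference, where 12.3% of all probe sets had such a p. Of the 18, 12 were below 0, with a median of -0.42 and a range of -5.81 to 0.55, while 49.7% of all probe sets were below 0 with a median of 0.0026. By the brightest probe set, 7 of 7 genes were below 0, with Smo at -0.07. In vehicle skin over the same time 5 of 7 were below 0. For baricitinib against vehicle 6 of 7 were below 0 at week 12 and 2 of 7 at week 0. In 6 of the 18 probe sets all 3 values of week 12 were under all 3 of week 0, and in 0 over them, against 7.91% and 7.97% of all probe sets. The members too were chosen with earlier results of these data known.

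For baricitinib against vehicle at week 12, 1 of the 18, Shh 1436869_at, had an unadjusted p under 0.05, where 10.9% of all probe sets had such a p. Of the 18, 11 were below 0 with a median of -0.19, where 48.7% of all were below 0. All 3 baricitinib values were under all 3 vehicle values in 2 of the 18 probe sets and over them in 1, against 9.69% and 7.44% of all probe sets. Vehicle week 12 against vehicle week 0 gave 0 calls by limma among the 18 and 0 at an unadjusted p under 0.05, where 0% of all probe sets were called and 2.46% had such a p. There 12 of the 18 were below 0, with a median of -0.22, where 46.3% of all were below 0. For baricitinib against vehicle at week 0 the members again had 0 calls and 0 at an unadjusted p under 0.05, against 0% called and 1.13% with such a p among all. Here 4 of the 18 were below 0, where 47.9% of all probe sets were, with a median of 0.17. The differences at week 0 were 0.41 for Ptch1, 0.64 for Gli1 and 0.62 for Hhip by their brightest probe sets, so that baricitinib skin had the higher mean of these genes and of Shh before treatment, within intervals that span 0. The change with baricitinib minus the change with vehicle had 0 calls among members and 0% among all. At an unadjusted p under 0.05 there was 1 of the 18, against 6.27% of all probe sets.

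Other genes of the pathway were examined as 5 lists of 35 genes, of which 32 were measured by a probe set of their own. In baricitinib skin at week 12 against week 0, 1 was called higher and 1 lower, where 0.5% of all genes were higher and 1.55% lower. A total of 18 of the 32 were below 0, with a median of -0.10. Neither vehicle week 12 against vehicle week 0 nor baricitinib against vehicle at week 12 gave a call by limma among them. At an unadjusted p under 0.05 there were 1 and 2 of the 32, where 2.46% and 10.9% of all probe sets had such a p. Between baricitinib and vehicle at week 12, 0.951% of all genes were called in either direction.

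Mycn, a growth-promoting transcription factor reported as a Hedgehog-responsive gene, was lower in baricitinib skin at week 12 than at week 0. It had 5.35, 5.79 and 4.75 in baricitinib skin at week 12, against 9.51, 7.26 and 9.11 at week 0, while vehicle skin had 5.88, 7.86 and 7.60 at week 12, and 8.98, 7.85 and 8.57 at week 0. Vehicle week 12 replicate 1 was close to the baricitinib week 12 arrays. In vehicle skin week 12 also had the lower mean, with a difference of -1.35 from week 0 that was not called (95% confidence interval -2.74 to 0.03). The difference between baricitinib week 12 and week 0 was -3.33 (SE 0.63, limma adjusted p = 0.0301, and adjusted p = 0.1 when mice were blocked), and that from vehicle at week 12 was -1.82 (adjusted p = 0.284). The call over time was lost without baricitinib week 0 replicate 1 (adjusted p = 0.105) or 3 (0.130) and without baricitinib week 12 replicate 2 (0.0799) or 3 (0.128). Of the other 6 measured genes of the responsive list none was called, among them Ccnd1 (-0.19), Ccnd2 (0.16), Bcl2 (-0.39) and Sox9 (-0.08).

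Disp1, which encodes a membrane protein that releases lipid-modified ligand from the producing cell, rose. It had 7.17, 7.36 and 7.58 in baricitinib skin at week 12, against 6.39, 6.09 and 5.66 at week 0, and between 6.01 and 6.69 in all 6 vehicle arrays. The difference between baricitinib week 12 and week 0 was 1.33 (SE 0.27, limma adjusted p = 0.0391, and adjusted p = 0.115 when mice were blocked), and that from vehicle at week 12 was 1.02 (adjusted p = 0.140). The call over time was lost without any 1 of 8 arrays, which were baricitinib week 0 replicates 1 (adjusted p = 0.0623), 2 (0.0801) and 3 (0.168), baricitinib week 12 replicates 2 (0.133) and 3 (0.167), vehicle week 0 replicate 2 (0.0720), and vehicle week 12 replicates 2 (0.0560) and 3 (0.0599). Among other genes of ligand release, Scube3 had 6.99, 6.70 and 5.57 at week 12 of baricitinib, against 8.24, 8.46 and 7.43 at week 0, a difference of -1.62 that was not called (adjusted p = 0.183). Of the other ligands, Ihh was under the median of all 12 arrays and Dhh differed by 0.43 (adjusted p = 0.758).

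Co-receptors, cytoplasmic regulators and cilium genes had no call. The co-receptors Cdon, Boc and Gas1, which help ligand binding, differed by 0.50, 0.49 and 0.24 between baricitinib week 12 and week 0. Of 10 regulators of GLI proteins, 7 were below 0 with a median of -0.21, from -1.02 for Stk36 (adjusted p = 0.163) to 1.01 for Prkaca, a catalytic subunit of the kinase that phosphorylates GLI proteins (adjusted p = 0.732). Prkaca had 8.18, 10.91 and 10.98 in baricitinib week 12, and 10.64 in vehicle week 0 replicate 1. Its 3 highest values were on the 3 arrays with a 3' minus 5' index under 2, and the part of the index was not tested. Sufu, which holds GLI proteins in the cytoplasm, differed by -0.19. The 5 measured genes of the primary cilium were between -0.86 for Tulp3 and 0.24 for Ift172.

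**Figure D5:**
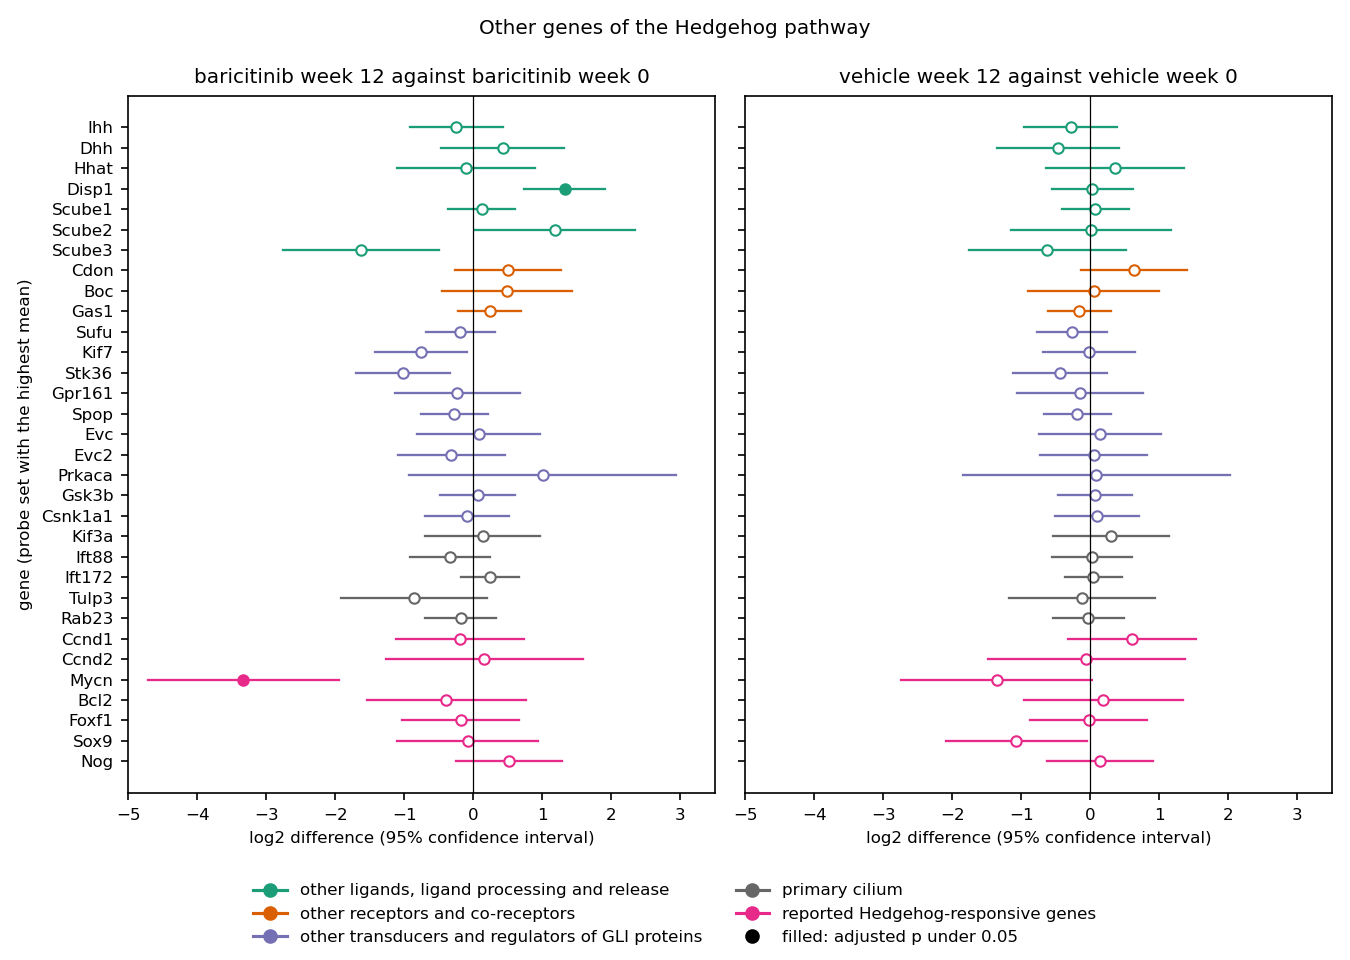
Log2 difference with 95% confidence interval of the 32 other pathway genes, for baricitinib week 12 against week 0 on the left and vehicle week 12 against week 0 on the right, coloured by list and filled where called. Mycn (-3.33) and Disp1 (1.33) are the only filled points, both on the left.

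Markers of cells near the source and the responding cells were set beside these values. In baricitinib skin at week 12 against week 0, 1.55% of all genes were lower and 0.5% higher. Of 8 dermal papilla markers 1 was lower, the protease gene Corin, with 4.43, 3.20 and 2.93 in baricitinib week 12, against 7.34, 7.30 and 6.98 in baricitinib week 0 (difference -3.68, SE 0.42, limma adjusted p = 0.0028). The median of the 8 was -0.26, and 3 were above 0, among them Crabp1 with 1.22 (adjusted p = 0.246). Against vehicle at week 12 Corin differed by -2.78 (adjusted p = 0.0165) and Crabp1 by 1.52 (adjusted p = 0.179), and the median of the 8 was 0.0046. In that comparison 0.951% of all genes were called in either direction, and no Merkel cell, epidermal or adipocyte marker was. Of 6 markers of bulge and hair germ 1 was higher over time, Krt15 (2.36, adjusted p = 0.0227), and 2 were below 0. Krt15 was also called higher against vehicle at week 12 (2.36), where 0 of the 6 were below 0. The 6 epidermal markers had a mean level of 12.23 to 12.54 in baricitinib week 12 and 11.94 to 12.09 in baricitinib week 0, with 1 higher. Of 5 Merkel cell markers 1 was lower, the keratin Krt8, with Krt20 and Atoh1 under the median of all 12 arrays. Of 4 leukocyte markers 1 was lower (Cd8a, -4.29), while Cd3e had 0.01, Cd68 -0.15 and Ptprc -0.95. Cd8a was also called lower against vehicle at week 12 (-4.39). Of 3 adipocyte markers 1 was higher (Cidec, 2.76), while no marker of fibroblasts, skeletal muscle, Schwann cells or sebaceous glands was called. Uncalled were Myh4 of skeletal muscle at -3.12 (limma adjusted p = 0.362) and Dcn of fibroblasts at 1.38 (adjusted p = 0.115), with 2 of 4 below 0 in each list. In vehicle skin over time Myh4 differed by -4.96, the lowest difference of all probe sets, and was not called. The part of these cells in the values of the pathway was not tested.

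The genes whose levels were most like those of Shh over the 12 arrays were found among 18186 other genes by Pearson's r. They were Gm12446 (0.97), Syt4 (0.95), Slfn1 (0.95), Krt35 (0.95), Gjb6 (0.95) and Gpr171 (0.94). Without the 3 baricitinib week 12 arrays r was between 0.69 for Gpr171 and 0.91 for Slfn1, with 0.70 for the hair keratin Krt35. Their differences between baricitinib week 12 and week 0 were between -6.51 and -1.29, a direction that follows from the choice, since the correlation used the same arrays. The same search for Gli1 gave Nrp2 (0.96), Wif1 (0.93), Fstl1 (0.91), Dct (0.90), Pik3r5 (0.89) and D630004K10Rik (0.88). Without the baricitinib week 12 arrays these had r between 0.84 and 0.96. Among them are Wif1, an inhibitor of Wnt ligands that is also listed with the dermal papilla markers, and Dct, an enzyme of melanin synthesis. They differed by -1.51 and -0.93 between baricitinib week 12 and week 0, and these values too come from arrays used for the choice.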

How the data were processed

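Total RNA of skin biopsies was amplified, biotinylated and hybridised to Affymetrix mouse arrays by the authors, who normalized the arrays of this experiment by RMA (version not given in the sources used here) and deposited the log2 values used here. Genes were named through the platform annotation. After removal of 64 controls, 45037 probe sets remained, of which 34945 had 1 symbol, 932 several and 9160 none. No filter was used. Linear models with a mean for each of 4 groups were fitted over all 12 arrays with limma 3.58.1 in R 4.3.3 (residual degrees of freedom 8, prior 3.54), Benjamini-Hochberg adjustment covered all probe sets in each of 5 comparisons, and the pipeline was tested on simulated data. Genes were represented by their brightest probe set on average. All member probe sets were named, and other pathway genes by a call or by role. Genes alike were the 6 with the highest correlation over the arrays. Members and lists were chosen with earlier results of these data known. Corin, Crabp1, Krt15, Krt8, the leukocyte genes, Cidec, Myh4, Dcn and the hair and proliferation genes were named from the lists after their values were seen. Arrays of both times that share a number code in the labels were taken as the same mouse, since the study's methods describe mice sampled at both times, although no label calls the code an animal number. Deviations from group means correlated between the times at -0.36, -0.51 and 0.47 in baricitinib mice and 0.44, -0.13 and 0.49 in vehicle mice. The mouse as a block was an alternative. The p-values of the main fit rest on a spread pooled over the 4 groups, with arrays of both times treated as independent. The number of arrays, 3 a group, limits precision. Promoters were searched in Python 3.11.15 with pandas 2.3.3, and figures were drawn with matplotlib 3.10.9.

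Alternatives were the mouse as a fixed or random block, removal of dim probe sets, a mean-dependent prior variance, cyclic loess, median centring, the 3' minus 5' index as a covariate, the mean of the probe sets of a gene, only the groups compared, and each array left out in turn. Leaving out the 2 arrays of lowest correlation, or the 3 with an index under 2, was added after seeing the data.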

Additional observations from a re-analysis of the deposited data

How the results depend on the processing

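In baricitinib skin at week 12 against week 0, the count of member probe sets called, 1 in the fit reported, was 0 when the mouse was a fixed replicate block and 0 to 3 with single arrays left out (0 without baricitinib week 0 replicate 3, and 3 without baricitinib week 12 replicate 1, when both probe sets of Gli2 were called). It was 1 under all other alternatives that kept more than 1 array in each group. The fit without the 3 arrays of low index left 1 baricitinib week 12 array, so its calls over time and against vehicle are not given. Against vehicle at week 12 the count of 1 was 0 without the 2 arrays of lowest correlation (Shh limma adjusted p = 0.0508). It was 0 with only the groups compared (0.0903), and 0 to 1 with single arrays left out. A fixed block cannot be fitted there, since no mouse had both treatments, and the random block changed no call. In the other 3 comparisons the count was 0 under every alternative run. The mouse as a fixed block changed no other call of a member.

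Shh 1436869_at was below 0 in both comparisons under every alternative run, from -6.56 to -3.03 over time (limma adjusted p 0.00353 to 0.0607) and from -5.31 to -2.46 against vehicle (0.0128 to 0.148). The values nearest 0 are those of the mean of both Shh probe sets. Of the other 17 probe sets, 10 changed sign under at least 1 alternative over time and 7 did not, and 2 were called at least once. Mycn kept its sign in 22 alternatives and lost its call in 7, and Disp1 lost its call in 14 of 22.

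The count of all probe sets called over time was 557. It was 1763 with the index as a covariate, 158 with the fixed replicate block and 97 with only the groups compared. Without the 2 arrays of lowest correlation it was 860, and with single arrays left out it was 70 to 1364. Against vehicle it was 261, against 792, 55, 1008 and 32 to 625 under the same settings without the block. Values under the array medians, which include those of Shh at week 12 of baricitinib, limit how exactly its fold is known.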
